A study of Mus musculus with 3 samples.

Results

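The smooth muscle contractile genes are a set of 10 named genes, Acta2, Myh11, Myl9, Mylk, Tpm2, Cnn1, Tagln, Smtn, Lmod1 and Des, found by symbol among the 32285 genes counted. All 10 were present in every library. In smooth muscle cells of the arterial wall, force comes from myosin filaments sliding along actin filaments after a calcium-dependent kinase phosphorylates the myosin light chain. Actin-binding proteins stabilise the thin filament and tune its use by myosin. The genes share control by serum response factor and its coactivator myocardin, and they are the textbook markers of contractile mural cells (smooth muscle cells and pericytes), while lymphocytes and other blood cells are known to lack them.

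RNA was counted by droplet single-cell sequencing (10x Genomics 3′ v3) in cells freed from the intima of the aortic arch of mice, on its lesser curvature. The groups were 1 library from mice injected intravenously with 30 µg of ultrapure lipopolysaccharide (LPS, a component of the bacterial outer membrane) 18 h before harvest, and 2 libraries from untreated control mice. All mice were wild-type C57Bl/6J, aged 12 to 13 weeks, and each library pooled males and females, 5 to 10 animals in all. Every group was also perfused and dissected in actinomycin D, which blocks transcription, and digested briefly with collagenase D and DNase I. The labels carry no replicate number, so the numbers 1 and 2 of the control replicates only follow record order. A unique molecular identifier (UMI) stands for 1 captured RNA molecule. Because 3′ libraries count 1 transcript end per molecule, levels are compared between genes without division by length.

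The libraries stood apart in ways the treatment does not define. The LPS library held 6000 barcodes (droplets), control replicate 1 held 1269 and control replicate 2 held 4813, with a median of 2032, 1572 and 3267 UMIs in that order. Gm42418, a ribosomal RNA-like transcript, took 28.6%, 9.81% and 1.59% of all UMIs, and haemoglobin transcripts took 25.2%, 44.0% and 7.91%. Of the kept barcodes, 4121 of 5156 in the LPS library, 197 of 431 in control replicate 1 and 0 of 2697 in control replicate 2 had at least 20% Gm42418 and less than 50% haemoglobin, and these are called Gm42418-rich. Barcodes with at least 50% haemoglobin UMIs are called haemoglobin-rich. The limit of 15% mitochondrial UMIs removed 810, 337 and 2116 barcodes. The LPS library shared 1 barcode sequence with control replicate 1 and 6 with control replicate 2, and the controls shared 2. The controls thus also lay apart from each other, and for a single value an exact permutation test of 1 library against 2 can give no p under 0.33.

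Barcodes were sorted into classes by 10 lists of 16 marker genes, none of which is a member of the set. A barcode passed the gate of a class with at least 3 of its markers detected and at least 2 times as many as of any other class. The mural gate (Rgs5, Notch3, Itga8, Synpo2 and 12 others) was passed by 27 barcodes in the LPS library, 14 in control replicate 1 and 45 in control replicate 2. All 27 in the LPS library and 13 of the 14 in control replicate 1 were Gm42418-rich, and 15 of the 27 and 7 of the 14 rested on the minimum of 3 markers. The endothelial gate held 110, 22 and 89 barcodes, the phagocyte gate 50, 23 and 128, the fibroblast gate 30, 5 and 71 and the lymphoid gate 64, 155 and 1553, all under the Gm42418 limit.

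The promoters of 8 of the 10 genes, all but Tagln and Myh11, were found in the RefSeq promoter table (GRCm38.p6). They were searched for the CArG box, the known binding motif of serum response factor, on both strands, over the 250 bases before each gene's RefSeq start. These starts are not the outer ends of the GENCODE gene spans given with the members: the Acta2 window has 217 of its 250 bases inside its gene span, and the Smtn and Mylk windows lie wholly inside theirs. A full box was present in 482 of all 32851 such windows (1.47%), and a full box or one with a single mismatch in the A/T core was present in 2823 (8.59%). Myl9, which encodes the regulatory myosin light chain, held a full box at positions -161 to -152 and a box with 1 mismatch at -99 to -90 (chr2:156775214-156775463, plus strand). Acta2, which encodes smooth muscle alpha-actin, held 2 boxes with 1 mismatch, at -84 to -75 and -34 to -25 (chr19:34255374-34255623, minus strand). Both windows are shown because they were the only windows of the 8 with such a match, and capitals mark the boxes. A match is a match of letters and not a measured site.
Acta2: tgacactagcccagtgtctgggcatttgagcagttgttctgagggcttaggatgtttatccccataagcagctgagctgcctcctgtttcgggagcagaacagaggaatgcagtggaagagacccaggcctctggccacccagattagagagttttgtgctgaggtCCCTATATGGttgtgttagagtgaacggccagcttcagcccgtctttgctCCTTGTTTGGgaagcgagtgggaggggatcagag
Myl9: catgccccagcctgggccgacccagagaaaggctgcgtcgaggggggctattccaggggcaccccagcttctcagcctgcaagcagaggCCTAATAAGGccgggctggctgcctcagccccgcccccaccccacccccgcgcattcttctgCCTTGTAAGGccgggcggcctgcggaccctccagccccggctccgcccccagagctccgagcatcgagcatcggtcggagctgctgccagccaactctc

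In the LPS library and in control replicate 2, most UMIs of these genes were spread over barcodes that each held few of them, and in control replicate 1 about as many lay in a small number of barcodes rich in them as in all others. Summed over all barcodes, the 10 genes had 30702 UMIs in the LPS library, against 3975 in control replicate 1 and 124641 in control replicate 2. At least 1 such UMI was found in 98.4% of LPS barcodes, in 77.1% of those of control replicate 1 and in 99.9% of those of control replicate 2. Lymphoid-gated barcodes, which should lack the genes, carried 3.42 UMIs each in the LPS library (exact Poisson 95% interval 2.98 to 3.91), 1.70 in control replicate 1 (1.50 to 1.92) and 22.9 in control replicate 2. Intervals of this kind cover counting error only. This lymphoid level is taken as the background of RNA free in the droplets of each library.

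Some classes lay near that background and others above it. In the LPS library, phagocyte-gated barcodes carried 3.60 UMIs of the 10 genes, haemoglobin-rich barcodes 3.86 and fibroblast-gated barcodes 3.97. In control replicate 1 phagocyte-gated barcodes carried 1.39, and the 5 fibroblast-gated ones 4.2, which is 2.47 times the lymphoid level (95% interval of the difference 0.69 to 4.30 UMIs). In control replicate 2 the phagocyte gate had 22.9, the fibroblast gate 22.5, the endothelial gate 24.1 and haemoglobin-rich barcodes 21.9. The level per barcode followed the depth of the barcode weakly. Haemoglobin-rich barcodes of the LPS library had a median of 595 UMIs other than Gm42418, haemoglobin and mitochondrial ones, and lymphoid-gated ones 5562.5. Within the lymphoid gate, Pearson's r between the 10 genes' UMIs and those other UMIs was 0.06 over 64 barcodes in the LPS library, 0.12 over 155 in control replicate 1 and 0.10 over 1553 in control replicate 2. In the other classes it ran from 0.03 (phagocyte gate) to 0.25 (haemoglobin-rich) in the LPS library, from -0.37 (23 barcodes of the phagocyte gate) to 0.22 (22 of the endothelial gate) in control replicate 1 and from 0.10 to 0.16 in control replicate 2. These r values are descriptions over barcodes of 1 library. Endothelial-gated barcodes stood above the background by 2.08 UMIs in the LPS library (95% interval 1.45 to 2.71), 1.30 in control replicate 1 (0.54 to 2.05) and 1.21 in control replicate 2 (0.16 to 2.26), which is 1.61, 1.76 and 1.05 times the lymphoid level. Gm42418-rich barcodes with no gate stood a like 2.10 UMIs above the background in the LPS library (1.64 to 2.57). The excess was thus not particular to the endothelial gate there. Intervals of these differences also cover counting error only and leave out the spread between barcodes. In the endothelial gate the variance was 6.08 times the mean in the LPS library, and 6.06 and 1.93 times in control replicates 1 and 2. In the 5 fibroblast-gated barcodes of control replicate 1 it was 4.21 times. Whether the excesses hold against that spread was not tested.

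**Figure D1:**
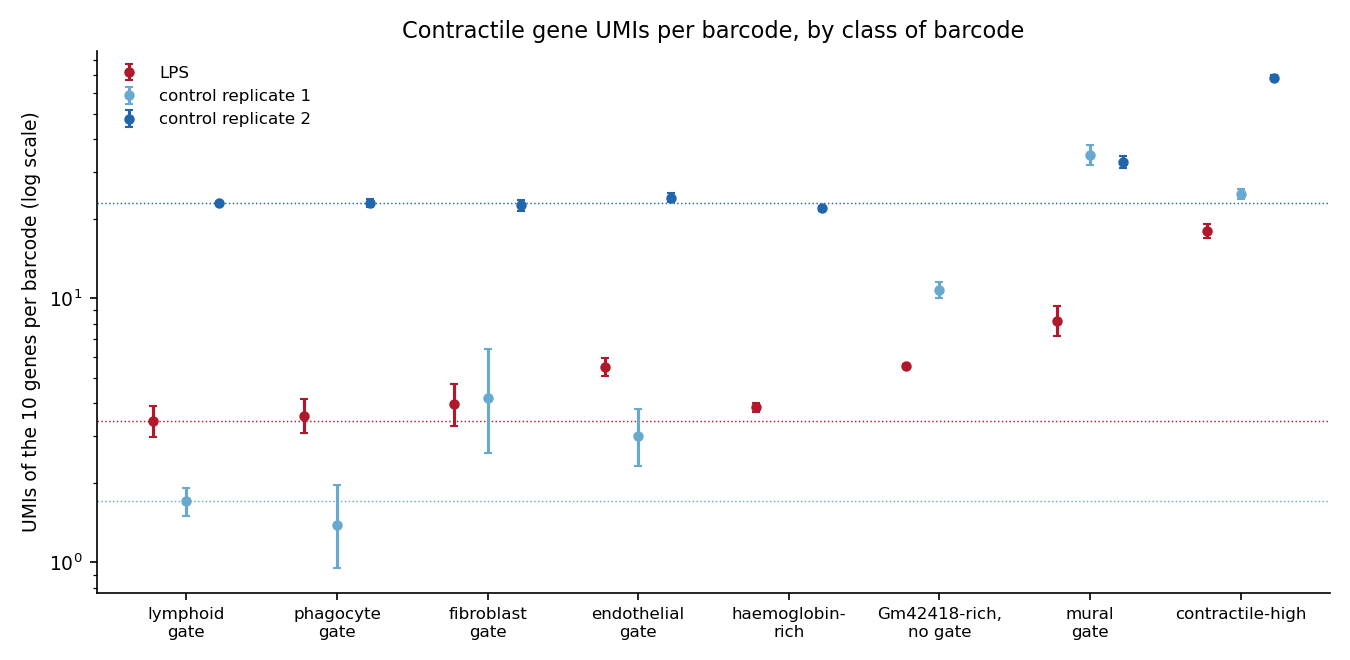
UMIs of the 10 contractile genes per barcode (log axis) in each class of barcode, for the LPS library (red), control replicate 1 (light blue) and control replicate 2 (dark blue). Bars are exact Poisson 95% intervals, dotted lines mark each library's lymphoid level, and classes with fewer than 5 barcodes are left out. In the LPS library the classes run from the dotted line to above it, in control replicate 2 most lie near it, and mural-gated and contractile-high barcodes lie above it in each library.

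The make-up of the 10 genes' UMIs differed little between the classes of control replicate 2 other than the mural gate. Acta2 took 40.1% in the endothelial gate, 40.3% in haemoglobin-rich barcodes and 39.2% in the lymphoid gate. The summed absolute difference in shares from the lymphoid gate, over all 10 genes, was 3.36 percentage points in haemoglobin-rich, 3.96 in endothelial-gated, 4.07 in phagocyte-gated and 6.41 in fibroblast-gated barcodes, but 11.3 in mural-gated ones, where Smtn took 6.30% (exact binomial 95% interval 5.11 to 7.66) against 2.91% in the lymphoid gate (2.74 to 3.09). The LPS library had another make-up. There Myh11, the smooth muscle myosin heavy chain, led with 32.8% in Gm42418-rich barcodes that passed no gate, 30.9% in haemoglobin-rich and 26.9% in lymphoid-gated barcodes, while Acta2 took 15.6%, 16.2% and 22.8%. In the lymphoid gate of the LPS library the leading shares overlapped, with Myh11 at 59 of 219 UMIs (exact binomial 95% interval 21.2 to 33.3%), Tagln at 56 (25.6%, 19.9 to 31.9%) and Acta2 at 50 (17.4 to 29.0%). In control replicate 1 Myh11 also led in the lymphoid gate, with 37.1% (exact binomial 95% interval 31.3 to 43.3) against 13.6% for Acta2 (9.74 to 18.4). In control replicate 2 those shares were 9.53% (9.23 to 9.84) and 39.2% (38.7 to 39.7). Lymphoid barcodes were thus led by Myh11 in control replicate 1 and by Acta2 in control replicate 2, while in the LPS library Myh11, Tagln and Acta2 lay together.

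**Figure D2:**
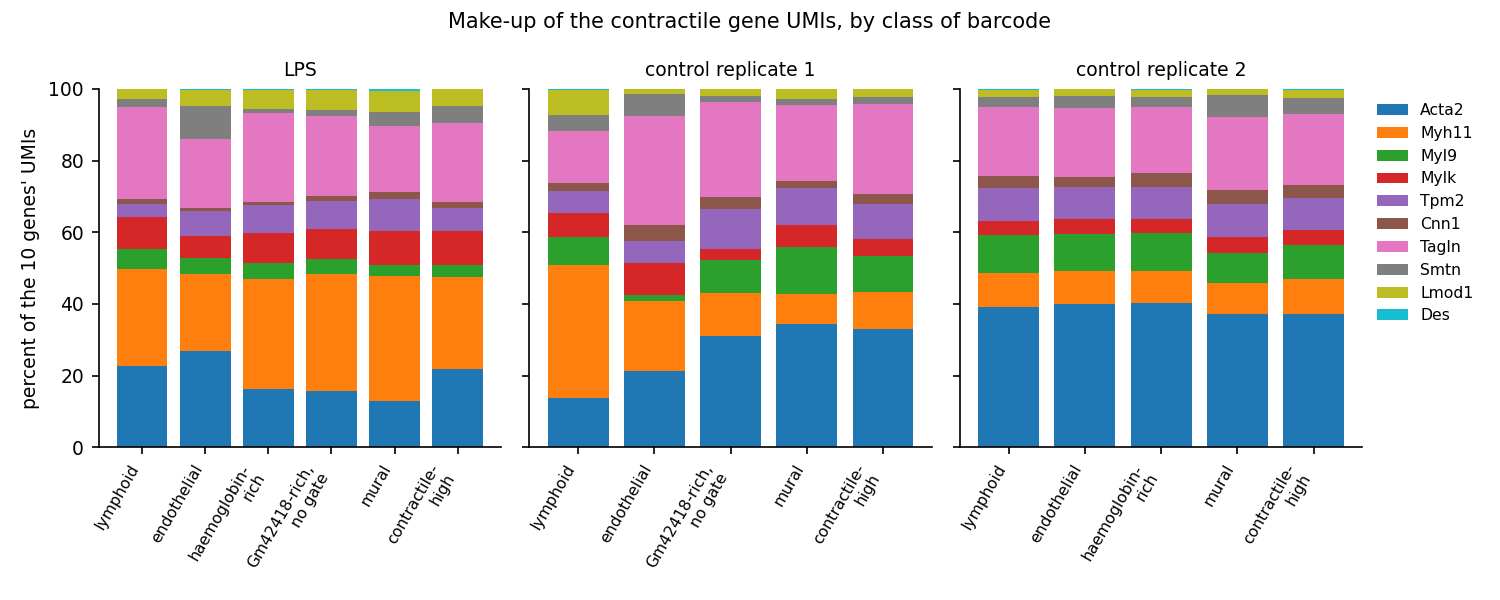
Share of each gene among the UMIs of the 10 contractile genes (stacked bars adding to 100%), by class of barcode, in the LPS library, control replicate 1 and control replicate 2. Bars of control replicate 2 have Acta2 at 37.1% to 40.3% and a larger Smtn share in mural than in lymphoid barcodes, bars of the LPS library are led by Myh11 in lymphoid and Gm42418-rich barcodes, and control replicate 1 has Myh11 first in lymphoid but Acta2 first in mural barcodes.

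Mural-gated barcodes carried more of the 10 genes than the lymphoid background in 3 of 3 libraries, and the LPS library had the lowest level of them. They held 8.22 UMIs per barcode in the LPS library, against 35.0 in control replicate 1 and 32.8 in control replicate 2. The excess over the lymphoid level was 4.80 UMIs in the LPS library (95% interval 3.63 to 5.97), 33.3 in control replicate 1 (30.2 to 36.4) and 9.95 in control replicate 2 (8.26 to 11.6). These intervals cover counting error only. The variance over barcodes was 5.44 times the mean in the LPS library, and 14.0 and 8.86 times in control replicates 1 and 2. In counts per 1e+06 UMIs other than Gm42418, haemoglobin and mitochondrial ones (CPM), the summed level was 7969 in the LPS library, 48190 in control replicate 1 and 23799 in control replicate 2, a log2 difference of -2.18 from the mean of the controls. No test was made, because fewer than 20 barcodes passed the gate in control replicate 1. The LPS and the control 1 barcodes were nearly all Gm42418-rich and those of control replicate 2 were not, and the part of this in the result was not tested. Gm42418-rich barcodes that passed no gate held 5.53 UMIs each in the LPS library, with a median of 5 against 6 in its mural gate. In control replicate 1 such barcodes held 10.8 UMIs each, with a median of 4 against 28.5 in its mural gate.

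Among the genes of actin and the myosin motor, the gap between libraries in the mural gate was widest, in UMIs, for Acta2 (ENSMUSG00000035783, chr19:34241090-34255590). Its level was 1.07 UMIs per barcode in the LPS library, against 12.1 in control replicate 1 and 12.2 in control replicate 2. The LPS value lay 0.29 UMIs above its own lymphoid level of 0.78, while control replicate 2 had 8.96 in lymphoid barcodes. Myl9 (ENSMUSG00000067818, chr2:156775420-156781658) had 0.26 UMIs per barcode in the LPS library, against 4.57 in control replicate 1 and 2.71 in control replicate 2. Most of the control replicate 2 value was background, with 2.43 in its lymphoid barcodes. The Myl9 excess over the lymphoid level was 0.07 in the LPS library, against 4.44 and 0.28 in control replicates 1 and 2. Its counting intervals overlapped between the LPS library (-0.15 to 0.29) and control replicate 2 (-0.21 to 0.77). Myh11 (ENSMUSG00000018830, chr16:14194535-14291372) was near level with the background included, at 2.85 UMIs per barcode in the LPS library, 2.93 in control replicate 1 and 2.91 in control replicate 2. The Myh11 excess over the lymphoid level was 1.93 in the LPS library, between 2.30 and 0.73 in control replicates 1 and 2. Mylk (ENSMUSG00000022836, chr16:34745210-35002420), the kinase of the myosin light chain, had 0.78 in the LPS library, against 2.14 and 1.44 in control replicates 1 and 2. Its excess over the lymphoid level was 0.47 in the LPS library, against 2.03 and 0.56 in control replicates 1 and 2. Coordinates are on GRCm38.

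Background included, the actin-binding members other than Des were lower in the LPS mural gate than in either control, with Lmod1 by little. With the lymphoid level taken off, Lmod1 had 0.39 UMIs in the LPS library, between 0.88 and 0.04 in control replicates 1 and 2. Tagln, Tpm2, Cnn1 and Smtn stayed lowest in the LPS library. The controls had no common order. Tagln (transgelin; ENSMUSG00000032085, chr9:45929619-45936058), which cross-links actin, had 1.52 UMIs per barcode in the LPS library, against 7.43 in control replicate 1 and 6.67 in control replicate 2. Tpm2 (beta-tropomyosin; ENSMUSG00000028464, chr4:43514711-43523765), which lies along the thin filament, had 0.74 in the LPS library, against 3.57 and 3.07 in control replicates 1 and 2. Cnn1 (calponin 1; ENSMUSG00000001349, chr9:22099216-22109630), which damps the myosin ATPase, had 0.15 in the LPS library, against 0.71 and 1.24 in control replicates 1 and 2. Of these 3 genes Cnn1 was highest in control replicate 2, and Tagln and Tpm2 were highest in control replicate 1. With the lymphoid level taken off, all 3 were highest in control replicate 1, Cnn1 at 0.68 against 0.46 in control replicate 2. Smtn (smoothelin; ENSMUSG00000020439, chr11:3517523-3540612), a protein of contractile actin fibres, had 0.33 in the LPS library, against 0.57 and 2.07 in control replicates 1 and 2. Lmod1 (leiomodin 1; ENSMUSG00000048096, chr1:135324807-135368065), which nucleates actin filaments, had 0.48 in the LPS library, against 1.00 in control replicate 1 and 0.49 in control replicate 2, so that the LPS value and control replicate 2 lay together. Des (desmin; ENSMUSG00000026208, chr1:75360329-75368579), the intermediate filament protein of muscle, was near 0, with 1 UMI in the 27 LPS barcodes, 0 in the 14 of control replicate 1 and 2 in the 45 of control replicate 2.

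A second view took the barcodes with the most contractile UMIs, whatever their class. A barcode was called contractile-high where the 10 genes' summed UMIs exceeded the lymphoid mean of its library by 5 SD, which put the limit at 13.6 UMIs in the LPS library, 10.3 in control replicate 1 and 53.3 in control replicate 2. The rule was chosen with these values in view and uses the members themselves, so their own levels there are a description. It took 55 of 6000 barcodes (0.917%, exact binomial 95% interval 0.691 to 1.19) in the LPS library, 79 of 1269 (6.23%, 4.96 to 7.70) in control replicate 1 and 129 of 4813 (2.68%, 2.24 to 3.18) in control replicate 2. The lowest barcode inside the limit and the highest outside it had 14 and 13 UMIs in the LPS library, 11 and 10 in control replicate 1 and 54 and 53 in control replicate 2. Lymphoid-gated barcodes past the limit numbered 0 of 64, 1 of 155 and 2 of 1553.

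Contractile-high barcodes held 3.23% of the 10 genes' UMIs in the LPS library, 49.3% in control replicate 1 and 7.08% in control replicate 2. In control replicate 1 they included all 14 mural-gated barcodes, and 68 of the 79 had at least 20% Gm42418. In control replicate 2, 100 of the 129 exceeded the mitochondrial limit, with a median of 21.6% mitochondrial UMIs. In the LPS library 22 of the 55 were mixed and 11 endothelial-gated, and 4 passed the mural gate. The largest counts in a single barcode were 39 UMIs in the LPS library, 78 in control replicate 1 and 215 in control replicate 2. Doublets were not called, and their part in the mixed and endothelial-gated barcodes was not tested.

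**Figure D3:**
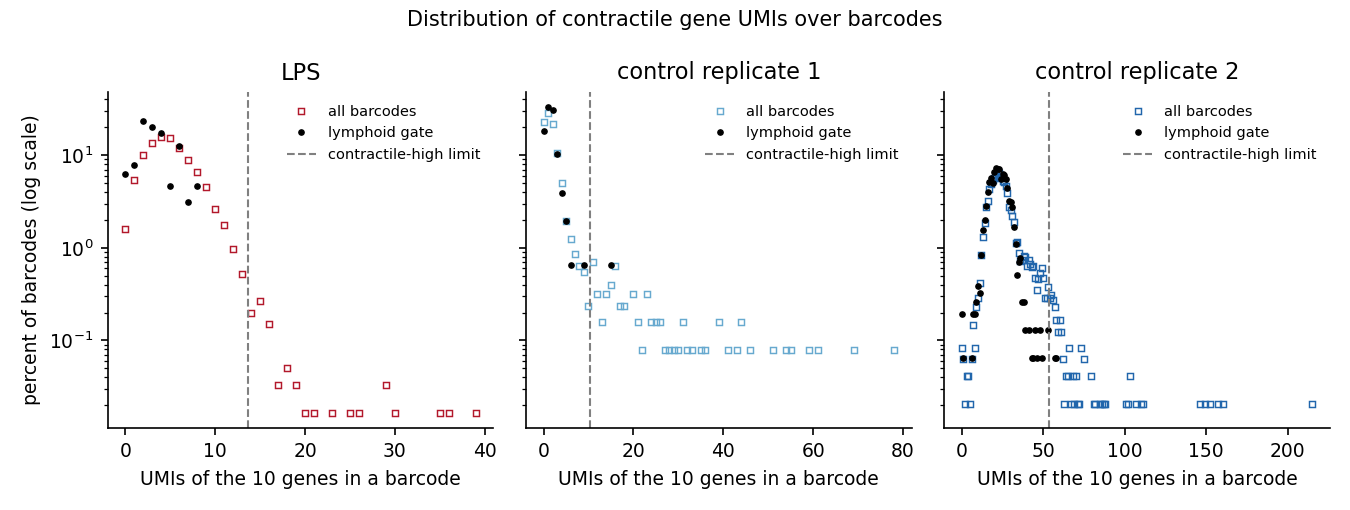
Percent of barcodes (log axis) with each number of UMIs of the 10 contractile genes, for all barcodes (open squares) and lymphoid-gated barcodes (black points), in the LPS library, control replicate 1 and control replicate 2. The dashed line is the limit for contractile-high barcodes at 13.6, 10.3 and 53.3 UMIs. In the LPS library all barcodes lie to the right of the lymphoid points, with medians of 5 and 3 UMIs, while the medians are 1 and 1 in control replicate 1 and 24 and 23 in control replicate 2. The tail of all barcodes reaches 39 UMIs in the LPS library, 78 in control replicate 1 and 215 in control replicate 2.

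The make-up of contractile-high barcodes was close to that of mural-gated ones in control replicate 1, and both differed from that library's background. All 14 mural-gated barcodes of that library are among its 79 contractile-high ones, so this likeness is in part built in. With the lymphoid level taken off, Acta2 made up 34.6%, Tagln 26.0%, Myl9 10.3%, Tpm2 9.86% and Myh11 8.23% of the 10 genes' UMIs in these 79 barcodes. The corresponding shares were 36.3%, 20.2%, 8.96%, 9.01% and 9.83% in control replicate 2. In the LPS library they were 21.6%, 21.4%, 2.58%, 7.24% and 25.6%, so Myh11 led. Contractile-high barcodes of both controls were thus led by Acta2, and those of the LPS library by Myh11, with Acta2 and Tagln next. Of these 55 LPS barcodes, 47 had at least 20% Gm42418. Counts among the 55 began at 14 UMIs, with a middle value of 15. Gm42418-rich LPS barcodes with no gate reached 23 UMIs. Above the lymphoid level they too were led by Myh11, at 0.89 UMIs against 0.35 for Tagln and 0.08 for Acta2. Only the lymphoid level was subtracted, so the part of this class in the LPS shares was not tested. The share of Myl9 was lower in the LPS library than in either control.

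Other mural genes were set beside these barcodes, since the rule did not use them. Of the 16 mural markers, 7 had a higher CPM in contractile-high than in other barcodes of the LPS library, 14 in control replicate 1 and 13 in control replicate 2. Over all genes with at least 20 UMIs, 41.5%, 36.7% and 46.8% were higher in CPM in the same libraries. The summed mural list stood at 677 CPM in contractile-high and 622 in other barcodes of the LPS library, at 2746 and 523 in control replicate 1 and at 4032 and 1745 in control replicate 2. Ppp1r14a, an inhibitor of myosin phosphatase, had 494.7 CPM against 10.9 in control replicate 1 and 418.1 CPM against 138.7 in control replicate 2, but 16.4 CPM against 14.1 in the LPS library. Itga8, an integrin of mural cells, had 531.8 CPM against 57.6 in control replicate 1 and 941.4 against 298.9 in control replicate 2, but 163.7 against 186.9 in the LPS library. Other markers went the other way. Notch3, a receptor of mural cells, had 27.3 CPM against 3.59 in the LPS library and Rgs5, a pericyte marker, 54.6 against 27.4, from 5 and 10 UMIs in the contractile-high barcodes, and Mrvi1 had 81.8 against 48.4. Kcnj8, a potassium channel of pericytes, was lower in contractile-high barcodes of control replicate 2, at 2.92 CPM against 6.30. Summed, the mural list thus had a higher share in contractile-high barcodes of both controls, and in the LPS library a share near that of other barcodes, with single markers higher and lower. No p is given, since the barcodes of a library are not replicates.

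**Figure D4:**
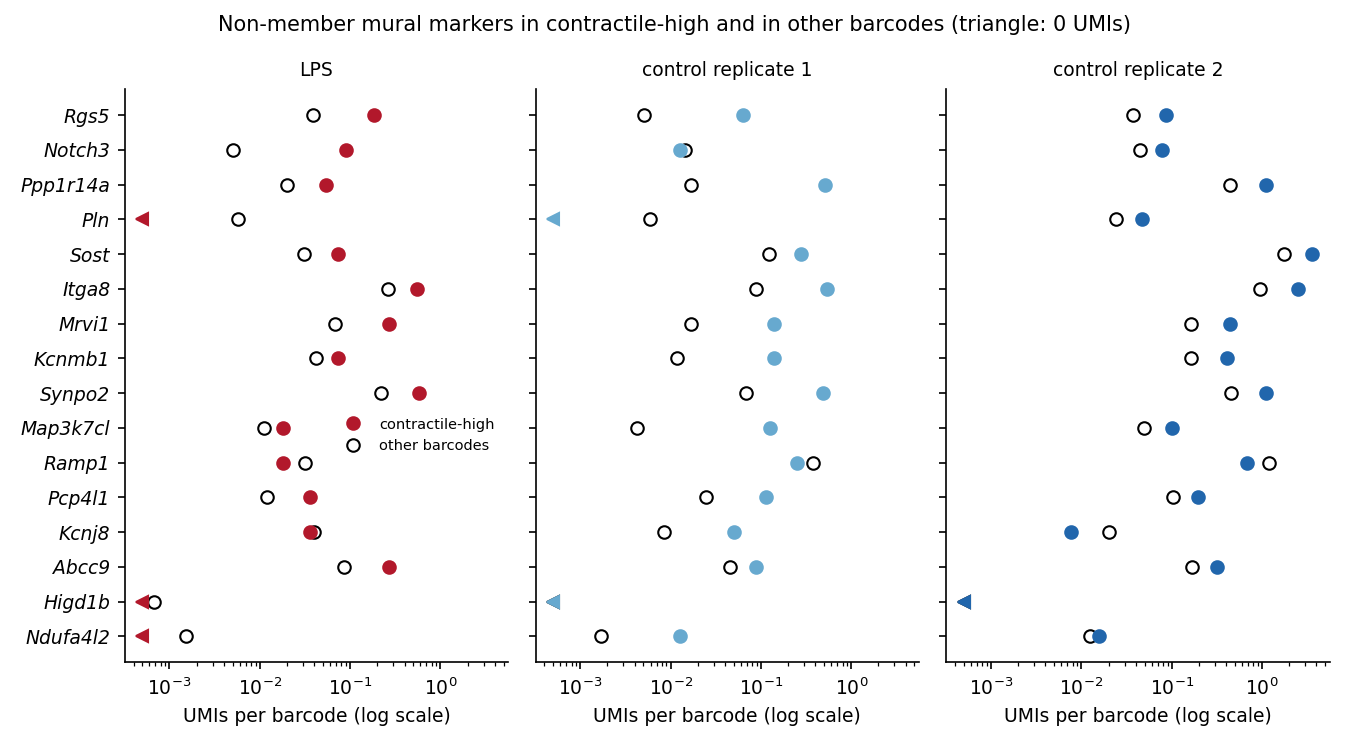
UMIs per barcode (log axis) of the 16 mural marker genes, none of them a member, in contractile-high barcodes (filled) and all other barcodes (open), in the LPS library, control replicate 1 and control replicate 2. Triangles at the left edge mark 0 UMIs. Per barcode 11, 12 and 13 of the 16 markers were higher in contractile-high barcodes, as were 76.6%, 19.0% and 35.9% of all genes with at least 20 UMIs, and among the widest gaps on this axis was that of Ppp1r14a in control replicate 1, where it had 0.51 UMIs per barcode in contractile-high and 0.02 in other barcodes.

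The contractile pathway list, 41 genes of actin filaments, their regulators and the serum response factor system, was counted in the same way. A higher CPM in contractile-high barcodes was found for 29 of the 41 in the LPS library, 37 in control replicate 1 and 40 in control replicate 2. The list summed to 12223 CPM against 10708 in the LPS library, 22967 against 5632 in control replicate 1 and 26710 against 11250 in control replicate 2. Myocd, the coactivator myocardin, was sparse, with 6 UMIs in the 55 LPS barcodes, 6 in the 79 of control replicate 1 and 16 in the 129 of control replicate 2. Markers of other cells also differed. The phagocyte list stood at 289 CPM in the contractile-high LPS barcodes against 2335 in the others, and the endothelial list stood at 4507 CPM against 2808. In control replicate 1 the fibroblast list stood at 5467 CPM against 1813, with 13 of 16 markers higher, and the striated muscle list at 606 CPM against 178. Striated muscle markers stood at 468 CPM against 43.0 in control replicate 2, where Acta1, the skeletal muscle actin, had 107 UMIs in the 129 barcodes and 9 in all others. The part of such cells in these results was not tested.

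The Gm42418-rich barcodes held most of the 10 genes' UMIs in the LPS library. Those that were not contractile-high numbered 4077 and held 71.8% of these UMIs. The 2279 that passed no gate had 5.53 UMIs each (95% interval 5.43 to 5.62), which is 1.61 times the lymphoid level of the library. Their spread was narrow, with a variance of 1.23 times the mean and a maximum of 23 UMIs. In control replicate 1 the 72 such barcodes had 10.8 UMIs each, 6.31 times the lymphoid level, with a variance of 19.8 times the mean and a maximum of 59. The LPS barcodes therefore shared a like, low level, and those of control replicate 1 mixed low barcodes with some of high level. In control replicate 1 the ungated Gm42418-rich barcodes were led by Acta2 and then Tagln, as the mural gate was, with Acta2 at 31.0% and Myh11 at 12.1%.

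LPS was compared with control in the classes with at least 20 barcodes in every library, by edgeR's quasi-likelihood test on UMIs summed per library and class, with Benjamini-Hochberg adjustment over all genes tested. In the endothelial gate 13.4% of 8185 genes were called in either direction and 6.44% were called lower with LPS. Of the 9 members tested, 7 were called lower and 0 higher, and Des was too low to test. Values below are CPM after scaling of library sizes. Acta2 had 120 CPM in the LPS library, against 77.1 in control replicate 1 and 1560 in control replicate 2 (log2 fold change -2.81, SE 0.50, adjusted p 8.79e-07). Cnn1 had 3.69 CPM in the LPS library, against 16.5 and 114 in control replicates 1 and 2 (-4.33, SE 0.64, adjusted p 1.65e-09). The LPS value of Cnn1 lay below both controls, and that of Acta2 lay between them. Cnn1 rested on 5 UMIs in the LPS library, and on 3 and 63 in control replicates 1 and 2. Its LPS level of 0.045 UMIs per barcode was near the lymphoid level of 0.047.

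The other 5 called members were Tagln, Tpm2, Myl9, Mylk and Myh11. Tagln had 86.2 CPM in the LPS library, against 110.2 and 740 in control replicates 1 and 2 (log2 fold change -2.36, adjusted p 1.87e-05). Mylk had 28.0 CPM, against 33.0 and 163 (-1.98, adjusted p 0.000676). Both lay below both controls in CPM with LPS, by little against control replicate 1. Per barcode both lay between the controls, Tagln at 1.06 UMIs against 0.91 in control replicate 1 and Mylk at 0.35 against 0.27. Tpm2, Myl9 and Myh11 lay between the controls, at log2 fold changes of -2.72, -3.48 and -1.26. Smtn (-1.21, adjusted p 0.0576) and Lmod1 (-1.18, adjusted p 0.137) missed the threshold. For all 9 genes control replicate 2 exceeded control replicate 1, by 4.94 to 72.1 times, and without control replicate 2 the log2 fold change, then with no test, was positive for Acta2 (0.64), Myh11 (0.41), Myl9 (1.48), Tpm2 (0.46), Lmod1 (1.53) and Smtn (0.82), and negative for Cnn1 (-1.59), Tagln (-0.33) and Mylk (-0.20).

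The calls also depended on how the counts were scaled and which barcodes were summed. Of the 9 members, 0 were called lower with at least 4 markers per barcode in place of 3, where 1.81% of all genes were, and 0 with Gm42418, haemoglobin and mitochondrial genes left out of the counts, where 0% of all genes were. The folds hardly moved in these fits, with Acta2 at -2.75 and -2.81 and Cnn1 at -4.28 and -4.33. With the lymphoid level subtracted 0 of the 4 members still testable and 0% of all genes were called lower, and Acta2 stood at -0.60. DESeq2 called 1.75% of all genes lower and 1 member, Cnn1 (-4.21, adjusted p 0.0390). A mitochondrial limit of 25% in place of 15% called 9 of 9 members lower, where 8.87% of all genes were. With Gm42418-rich barcodes included, 3 members and 6.03% of all genes were called lower and the log2 fold change turned positive for Myh11 (1.02), Lmod1 (0.78) and Mylk (0.23).

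In the fibroblast gate, where control replicate 1 had too few barcodes under the Gm42418 limit of 20%, a limit of 40% gave 5 of 9 members called lower, against 5.04% of all genes (edgeR). They were Acta2 (-3.56), Myl9 (-3.60), Tpm2 (-2.37), Cnn1 (-4.99) and Smtn (-3.15). Any Gm42418 share gave 4, Acta2 (-1.91), Myl9 (-2.14), Cnn1 (-2.52) and Smtn (-1.93), against 5.23% of all genes. In the mural gate a test could be made with at least 2 markers in place of 3, and called 1 of 9 members lower, Cnn1 (-2.89, adjusted p 0.0428), against 0.822% of all genes.

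In cells that should lack the genes, the LPS values also lay below those of control replicate 2, but mostly not below both controls in the lymphoid gate. There 7 of the 9 tested members lay between the controls and 2 below both. Acta2 had 104 CPM in the LPS library, against 37.0 in control replicate 1 and 1361 in control replicate 2, and Tagln had 116, against 39.1 and 668. In the lymphoid gate the log2 fold changes of the 9 tested members ran from -3.42 to -0.84, with a median of -2.53 against -0.07 over all genes. None of the 9671 genes was called there (0%), with 1298 genes and 0 members at an unadjusted p under 0.05, and DESeq2 called 157 genes and 0 members. In the phagocyte gate 8 of the 9 members lay below both controls in CPM. Per barcode the summed genes lay between the controls there, at 3.60 UMIs against 1.39 in control replicate 1 and 22.9 in control replicate 2. The gate's median of UMIs other than Gm42418, haemoglobin and mitochondrial ones was 13170 with LPS, against 1965 and 2057.5 in control replicates 1 and 2. The members' log2 fold changes ran from -4.95 to -2.21, with a median of -4.03 against -0.01 over all genes. Of 7808 genes 1.14% were called there, 1.01% higher and 0.128% lower with LPS, and 0 of 9 members, 8 of which had an unadjusted p under 0.05, while DESeq2 called 1. The median of the members in the endothelial gate was -2.36 against -0.02 over all genes.

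The difference between the endothelial and the lymphoid response was tested itself, as the interaction of class and treatment in a fit that blocks on library. Of 10624 genes 0.602% were called and 0 of 9 members, with log2 differences from -1.06 for Tagln to 1.53 for Smtn and adjusted p from 0.865 to 1 (edgeR). The members at an unadjusted p under 0.05 numbered 0, and DESeq2 called 0 genes of any kind. The interval of such a difference is wide at an SE of 0.87 to 1.31, so a difference of 2-fold in either direction was not detectable. A response of the contractile genes in endothelial cells apart from that in lymphoid cells was therefore not shown.

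**Figure D5:**
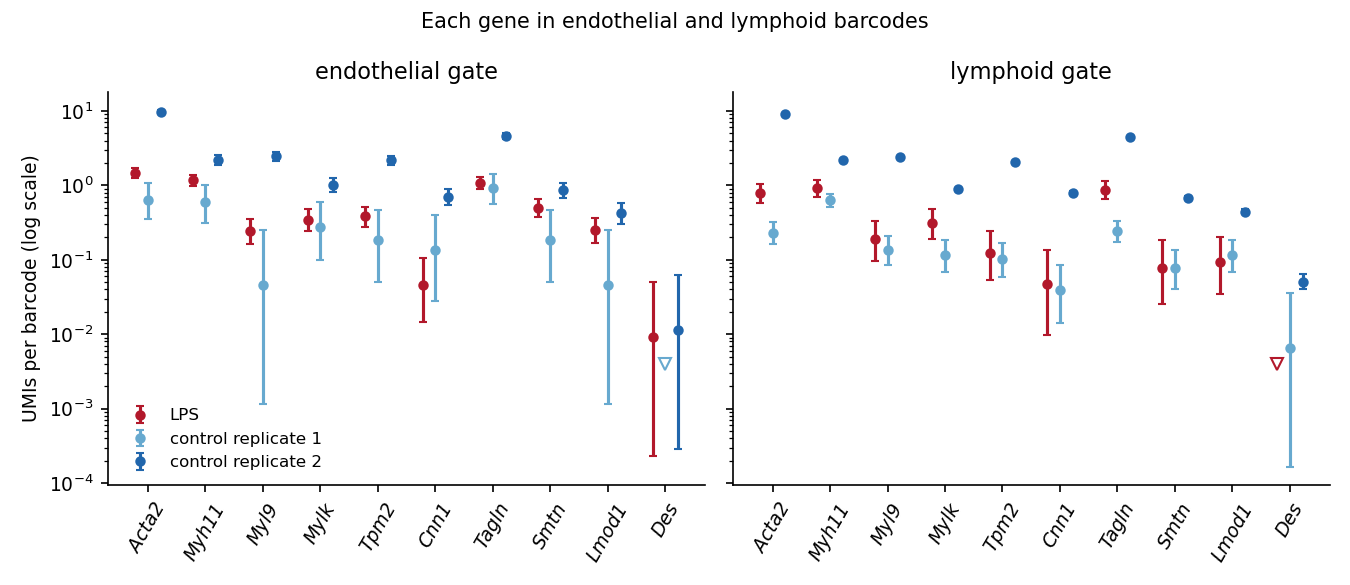
UMIs per barcode (log axis) of each contractile gene in endothelial-gated and lymphoid-gated barcodes, for the LPS library (red), control replicate 1 (light blue) and control replicate 2 (dark blue). Bars are exact Poisson 95% intervals and open triangles mark genes with 0 UMIs. Acta2 stands at 1.48, 0.64 and 9.66 UMIs in endothelial and at 0.78, 0.23 and 8.96 in lymphoid barcodes of these libraries, and Smtn in the LPS library is higher in endothelial (0.50) than in lymphoid barcodes (0.08).

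Single members stood above the background in endothelial barcodes under the Gm42418 limit. Smtn did so most clearly, with 0.50 UMIs per endothelial-gated and 0.08 per lymphoid-gated barcode in the LPS library, a difference of 0.42 (95% interval 0.273 to 0.571). The difference was 0.199 in control replicate 2 (0.001 to 0.396), while in control replicate 1 the endothelial level was 0.18 and the lymphoid level 0.08. In the LPS library Acta2 was above by 0.70 UMIs (0.39 to 1.02), Tpm2 by 0.26 (0.11 to 0.40) and Lmod1 by 0.16 (0.04 to 0.28). Tpm2 and Lmod1 also stood above it in haemoglobin-rich barcodes of that library, by 0.17 (0.07 to 0.27) and 0.11 (0.03 to 0.19), and in Gm42418-rich phagocyte barcodes, by 0.24 and 0.13, whereas Acta2 and Smtn were at -0.16 and -0.03 in the haemoglobin-rich ones. In the 484 Gm42418-rich endothelial barcodes of that library Smtn was above by only 0.03 (-0.05 to 0.10) and Acta2 by 0.15 (-0.08 to 0.39). Tpm2 and Lmod1 were above there by 0.27 and 0.20. Those barcodes were shallower, with a median of 669 UMIs other than Gm42418, haemoglobin and mitochondrial ones, against 7585 under the limit. The endothelial gate of the LPS library had a variance of 6.08 times the mean for the summed genes and a maximum of 36 UMIs, and its lymphoid gate had 1.21 times and 8 UMIs. Single barcodes with many contractile UMIs were thus among the LPS endothelial barcodes, and their part in the excess was not tested.

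Of the 34 pathway genes tested in the endothelial gate, 2 were called higher and 5 lower, where 6.95% of all genes were called higher and 6.44% lower. Itga1, an integrin chain that binds collagen, rose to 487 CPM with LPS, against 121 and 127 in control replicates 1 and 2 (log2 fold change 1.97, edgeR adjusted p 6.78e-05). Hspb1, a small heat shock protein that binds actin filaments, rose to 400.3 CPM, against 154 and 165 (1.32, adjusted p 0.0154). For both the LPS value lay above both controls, and the controls lay together. Ckb, the brain-type creatine kinase, fell to 3.69 CPM, against 49.6 and 79.8 (-4.16, adjusted p 1.51e-08). Fhl1, a LIM protein, fell to 50.9 CPM, against 292 and 390.1 (-2.76, adjusted p 7.58e-07). Pdlim3 (-2.29) and Csrp1 (-1.96), LIM proteins of the actin cytoskeleton, and Myl6 (-1.26), the essential myosin light chain, also fell, and Myl6 is outside the naming rule and was added with its value known. In the phagocyte gate 0 of 31 were called higher and 1 lower, Ckb (-4.05, adjusted p 0.0407). In the lymphoid gate 0 of 35 were called in either direction. In the endothelial gate 0 of the pathway genes were called with Gm42418, haemoglobin and mitochondrial genes left out or with the lymphoid level subtracted, where 0 genes of any kind were called.

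The genes whose pattern was most like the set were found over 21 points, each a gated class of a library with at least 20 barcodes. Among 9866 genes that were no members, Col18a1, a basement membrane collagen, had the highest Pearson's r with the mean of the members' log2(CPM + 10), at 0.94. Dmpk, a muscle protein kinase, followed at 0.90, Npnt, a ligand of integrin alpha 8, at 0.89, Susd5 at 0.89 and Tpm1, the alpha-tropomyosin, at 0.89. Pcdh7, Thsd4, Itga8, Pde5a and Lgr6 ran from 0.88 to 0.87. The members themselves ran from 0.82 for Des to 0.98 for Tagln, each being a part of the mean. Points of 1 library share its background RNA and its depth, so these values describe the tables and carry no p.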

How the data were processed

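The authors deposited raw UMI counts, made with Cell Ranger 3.1 on mm10. The tools come from the submitters' processing notes, where R 4.2.1 and Seurat 4.2.0 appear too. Not given in the sources used here are the annotation and the selection of barcodes. Gene and barcode names are listed beside the counts, and all 3 libraries were used.

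Gating used barcodes of 500 UMIs and 300 genes or more with up to 15% mitochondrial UMIs, 5156, 431 and 2697 in the LPS library and control replicates 1 and 2. Gates were built here from marker lists and are no annotation of the authors, and some markers leak: Ramp1, in the mural list, was lower in contractile-high than in other barcodes of control replicate 2 (0.67 against 1.19 UMIs). Per-barcode levels, shares, exact Poisson and Clopper-Pearson 95% intervals were computed in Python 3.11.15 (scipy 1.17.1). UMIs were summed per library and class and tested with edgeR 4.0.16 (TMM factors, filterByExpr, quasi-likelihood test, Benjamini-Hochberg at 0.05), after tests on simulated data. The fit has 1 residual degree of freedom, from the 2 controls, and takes the spread of the single LPS library to equal theirs. Nothing but the pooling says how separate the libraries are, so p-values speak at most of these samples, whose spread may be technical. The fit also draws the spread in part from other genes, so a p need not reflect a member's own gap between the controls. In the endothelial gate Acta2 had an SE of 0.50, though its controls stood at 77.1 and 1560 CPM. DESeq2 1.42.0 and other gates, limits and scalings were alternatives. Endothelial, phagocyte and lymphoid gates were tested. Mural and fibroblast gates, with 14 and 5 barcodes in control replicate 1, were tested only under alternatives that gave at least 20.

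All 10 members are described, with up to 6 called pathway genes per class and the 10 genes most like the set. Members and lists, including 43 pathway symbols of which 41 were found, were chosen with earlier results of these data known. The contractile-high rule was chosen after seeing the values. Promoter sequences are from RefSeq (GRCm38.p6), and gene positions from GENCODE on GRCm38.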

Additional observations from a re-analysis of the deposited data

How the results depend on the processing

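No paired analysis was possible because the labels give no replicate numbers and 1 LPS library faces 2 controls. With a single residual degree of freedom, calls moved widely. In the endothelial gate 1096 genes and 7 members were called. These counts became 370 and 0 with at least 4 markers, 0 and 0 without Gm42418, haemoglobin and mitochondrial genes, 0 and 0 with free RNA subtracted, and 273 and 1 with DESeq2. A mitochondrial limit of 25% gave 1816 genes and 9 members. At least 2 markers and RLE factors kept the member count at 7, and a Gm42418 limit of 40% and no filter on low counts gave 6. Any Gm42418 share gave 3 members, with log2 fold changes of 1.02 for Myh11, 0.78 for Lmod1 and 0.23 for Mylk. Library sizes set to the number of barcodes gave 4 members, and moved the median of all genes to 0.87 in the endothelial and 1.98 in the phagocyte gate. With free RNA subtracted Smtn stood at 0.51. Without control replicate 1 or 2 no test was left, and the log2 fold change ran from -3.68 to 0.64 for Acta2, -1.87 to 0.41 for Myh11, -4.18 to 1.48 for Myl9 and -3.41 to 0.46 for Tpm2.

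In the phagocyte gate, with 89 genes and 0 members called, counts were 427 and 9 with at least 2 markers, 406 and 6 at a Gm42418 limit of 40%, 392 and 5 at any Gm42418 share, 357 and 8 with no filter on low counts and 4619 and 5 with sizes set to barcodes. Free RNA subtracted gave 180 genes, DESeq2 1 member and RLE factors 0 genes. In the lymphoid gate, with 0 called, 61 genes were called with at least 2 markers, 157 with DESeq2, 87 with sizes set to barcodes, and 877 genes and 7 members with no filter. The endothelial minus lymphoid difference, with 64 genes, had 31 at a mitochondrial limit of 25%, 27 at any Gm42418 share, 0 with DESeq2 and 40 with no filter, and 0 members throughout. The cause of these moves was not tested.

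The summed members' log2 difference, LPS over the mean of the controls, was -2.35 in the endothelial, -3.32 in the fibroblast, -3.69 in the phagocyte and -2.18 in the lymphoid gate. Leaving out control replicate 1 or 2 gave -3.22 to 0.14, -4.21 to -0.60, -4.62 to -0.36 and -3.09 to 0.89, the upper value each time without control replicate 2. Any Gm42418 share moved the fibroblast value to -0.69. In the mural gate it was -2.18 and lay between -2.82 and -1.58 under all 9 alternatives that gave a value, with no value at a Gm42418 limit of 10%. With at least 2 markers the mural gate held 142, 31 and 50 barcodes in the LPS library and control replicates 1 and 2, and edgeR called 1 of 9 members lower. In the fibroblast gate a Gm42418 limit of 40% gave 669 genes and 5 members, and any share 741 and 4. A contractile-high limit of 4 or 6 SD took 144 or 27 LPS barcodes, 89 or 70 of control replicate 1 and 253 or 62 of control replicate 2. Any Gm42418 share, sizes set to barcodes, levels per barcode and these limits were chosen after seeing the data.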
